A study of Mus musculus with 4 samples.

Results

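Fibrillar collagen is folded, modified and exported through the endoplasmic reticulum (ER) before it is assembled outside the cell, and 37 genes of this route were followed in mouse cartilage. They were chosen by name, as the rows of the deposited gene table whose symbol equals that of a listed gene, and all 37 were found among the 24532 genes of the table. By role they comprised 9 hydroxylases and glycosyltransferases, 4 collagen chaperones, 5 export genes, 8 ER chaperones and folding enzymes, 3 ER stress factors, and 8 genes of crosslinking and propeptide removal. Transcripts were measured by sequencing poly-A selected RNA from the knee cartilage of wild type C57BL/6 male mice, with a sham group and an injured group at each of 2 ages, young and adult. Values are given in the order sham and injured for young mice, then sham and injured for adult mice. Young mice were 3 weeks old. Adult mice were 10 weeks old by the study's methods, whereas the sample labels give 12 weeks in the title and 14 weeks in another field. The injury was a full-thickness cartilage injury (FTCI) made 3 days before collection by the methods, whereas the labels name DMM surgery, a destabilization of the medial meniscus. The adult sham label gives days 3 to 14. All 4 groups shared the genotype, and the labels name no allele or drug that differed between them. Cartilage was pooled from 10 injured or 5 uninjured mice, so that each group was 1 library, the spread between mice was not measured, and no p-value or standard deviation can be given.

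Procollagen chains are hydroxylated on proline and lysine while they are translated, and hydroxyproline keeps the triple helix stable at body temperature. General ER chaperones hold the unfolded chains, collagen-specific chaperones bind the helix, and enlarged COPII vesicles carry the stiff molecule to the Golgi. Outside the cell the propeptides are cut off and lysyl oxidases crosslink the fibrils. Chondrocytes depend heavily on this route because collagen is a main component of cartilage matrix, and defects in several of these genes cause skeletal disease.

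The values were FPKM, which divide a gene's fragments by the length of its transcripts and by the size of the library and allow levels to be compared between genes. A difference between libraries was the log2 ratio of FPKM + 1, and it was counted at 2-fold or more among 13209 genes with at least 1 FPKM in at least 1 library. The FPKM of all genes summed to between 469939 and 533468 per library, and the 10 most abundant genes took 14.7% to 26.5% of the sum, the highest share being in adult sham. The median log2 ratio of all 13209 genes was -0.31 for adult sham against young sham and 0.25 for adult injured against adult sham, whereas it was -0.02 for young injured against young sham and -0.09 between the injured libraries. Most genes were therefore lower in the adult sham library, and each difference that involved it was calculated again after median-of-ratios scaling, in which each library is divided by the median ratio of its genes to their geometric mean over the 4 libraries, and which brought these 4 medians to between -0.01 and 0.03. All 10 chondrocyte markers were at 1 FPKM or more in every library. The 10 macrophage markers summed to 186 and 1823 FPKM in young sham and injured cartilage, and 304 and 1579 FPKM in the adult counterparts, and the 8 osteoblast markers to 1162, 3806, 8267 and 10998 FPKM in the same order. The remaining lists summed to between 12960 and 18263 FPKM for chondrocytes, 481 and 3140 for hypertrophic chondrocytes (highest in adult injured), 1187 and 2419 for neutrophils, 3031 and 18440 for erythroid cells (highest in young injured), 333 and 1120 for muscle (highest in adult sham) and 14.4 and 72.9 for endothelium (higher in both injured libraries). As deposited, 6 of the 10 chondrocyte markers were 2-fold lower in adult sham than in young sham and 1 was higher. The chondrocyte sum hid this. Thus *Matn3* fell from 392 to 2.30 FPKM and *Col9a1* from 955 to 40.9 FPKM, while *Comp* rose from 1324 to 7203 FPKM. Most of the hypertrophic sum in adult injured cartilage was *Col10a1*, at 2446 FPKM, whereas *Ihh* was lower there (7.55 FPKM) than in adult sham (16.6 FPKM). The part of these markers in the 37 genes was not tested. None of the marker genes of the 10 cell type lists was at 0 in any library. In such mixed tissue, fewer cells of a type and less RNA per cell cannot be told apart.

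The 37 genes ranged from *P4ha3* and *Loxl4*, below 10 FPKM in every library, to *Serpinh1* at up to 1511 FPKM, and their sum was lowest in the adult sham library. In every library except adult sham all 37 genes were at 1 FPKM or more, and in adult sham 36 were, with *P4ha3* at 0.996 FPKM. Together the 37 genes summed to 7809 FPKM in the young sham library and 8662 after injury, compared with 5453 and 6451 FPKM in the adult libraries, or 1.59%, 1.62%, 1.08% and 1.37% of all FPKM. The adult sham library held the lowest of the 4 values for 27 of the 37 genes (73.0%), compared with 54.8% of all genes tested. After median-of-ratios scaling it held the lowest value for 17 of the 37, compared with 34.3% of all genes. As deposited, young sham held the highest value for 20 genes, adult injured for 8, young injured for 6 and adult sham for 3. The share of all genes was not calculated for these counts, so they are not read as particular to the 37. Of all 13209 genes, 9176 were lower in adult sham than in young sham on this scale.

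**Figure D1:**
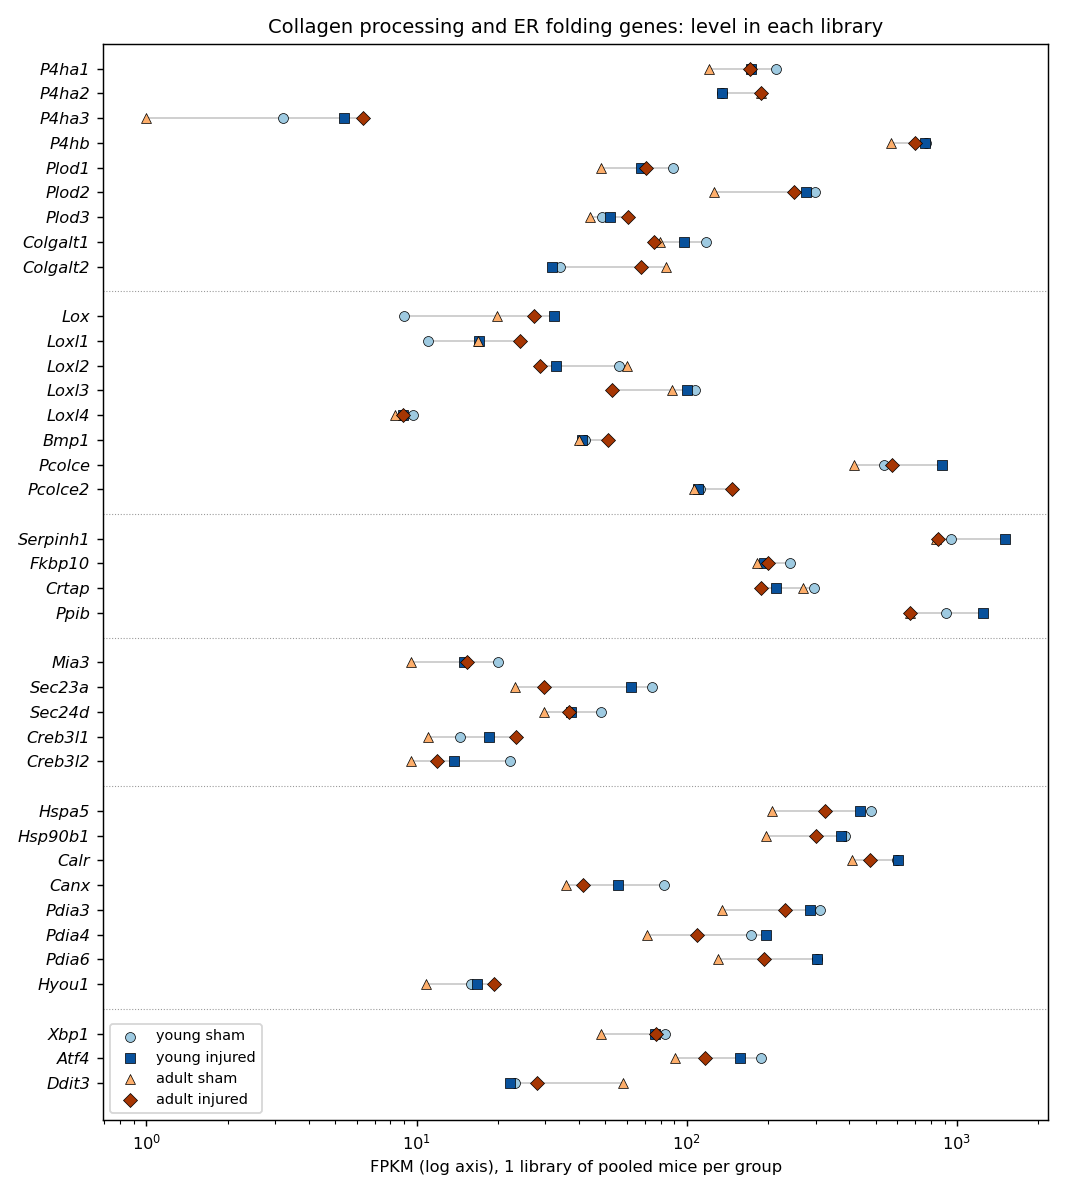
FPKM of each of the 37 genes (log axis) in the 4 libraries, 1 point per library and 1 library of pooled mice per group, with the genes grouped by role from the hydroxylases at the top to the ER stress factors at the bottom. The adult sham triangle is leftmost for 27 genes, while *Colgalt2*, *Loxl2* and *Ddit3* are highest in that library.

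As deposited, fewer of the 37 genes differed 2-fold after injury than between the sham libraries, which was also so for all genes. In young mice, 1 gene (2.70%) was higher after injury, compared with 6.28% of all genes, and 0 were lower, compared with 1.74%. In adult mice, 2 genes (5.41%) were higher, compared with 9.5% of all genes, and 2 were lower, compared with 2.01%. In adult sham against young sham cartilage, 3 genes (8.11%) were higher, compared with 3.66% of all genes, and 10 (27.0%) were lower, compared with 14.6%. Between the injured libraries, 1 gene was higher in the adult, compared with 2.48% of all genes, and 1 was lower, compared with 4.25%. The median log2 ratio of the 37 genes was -0.10 after injury in young mice, 0.37 after injury in adult mice, -0.52 between the sham libraries and -0.14 between the injured libraries, the last being 0.04 with TPM or quantile scaling. After median-of-ratios scaling, the count lower in adult sham fell from 10 to 1, compared with 7.64% of all genes, and the count higher stayed at 3, compared with 7.34%. On that scale the adult injury comparison had 1 gene higher, compared with 6.56% of all genes, and 2 lower, compared with 3.44%. These comparisons share libraries, so that a low value in adult sham enters both the adult injury ratio and the ratio between the sham libraries. In all, 15 genes (40.5%) reached 2-fold in at least 1 comparison as deposited, compared with 28.8% of all genes, and 22 in none. These 15 include the 10 lower in adult sham, of which 1 remained after median-of-ratios scaling. The share was not counted again on that scale.

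**Figure D2:**
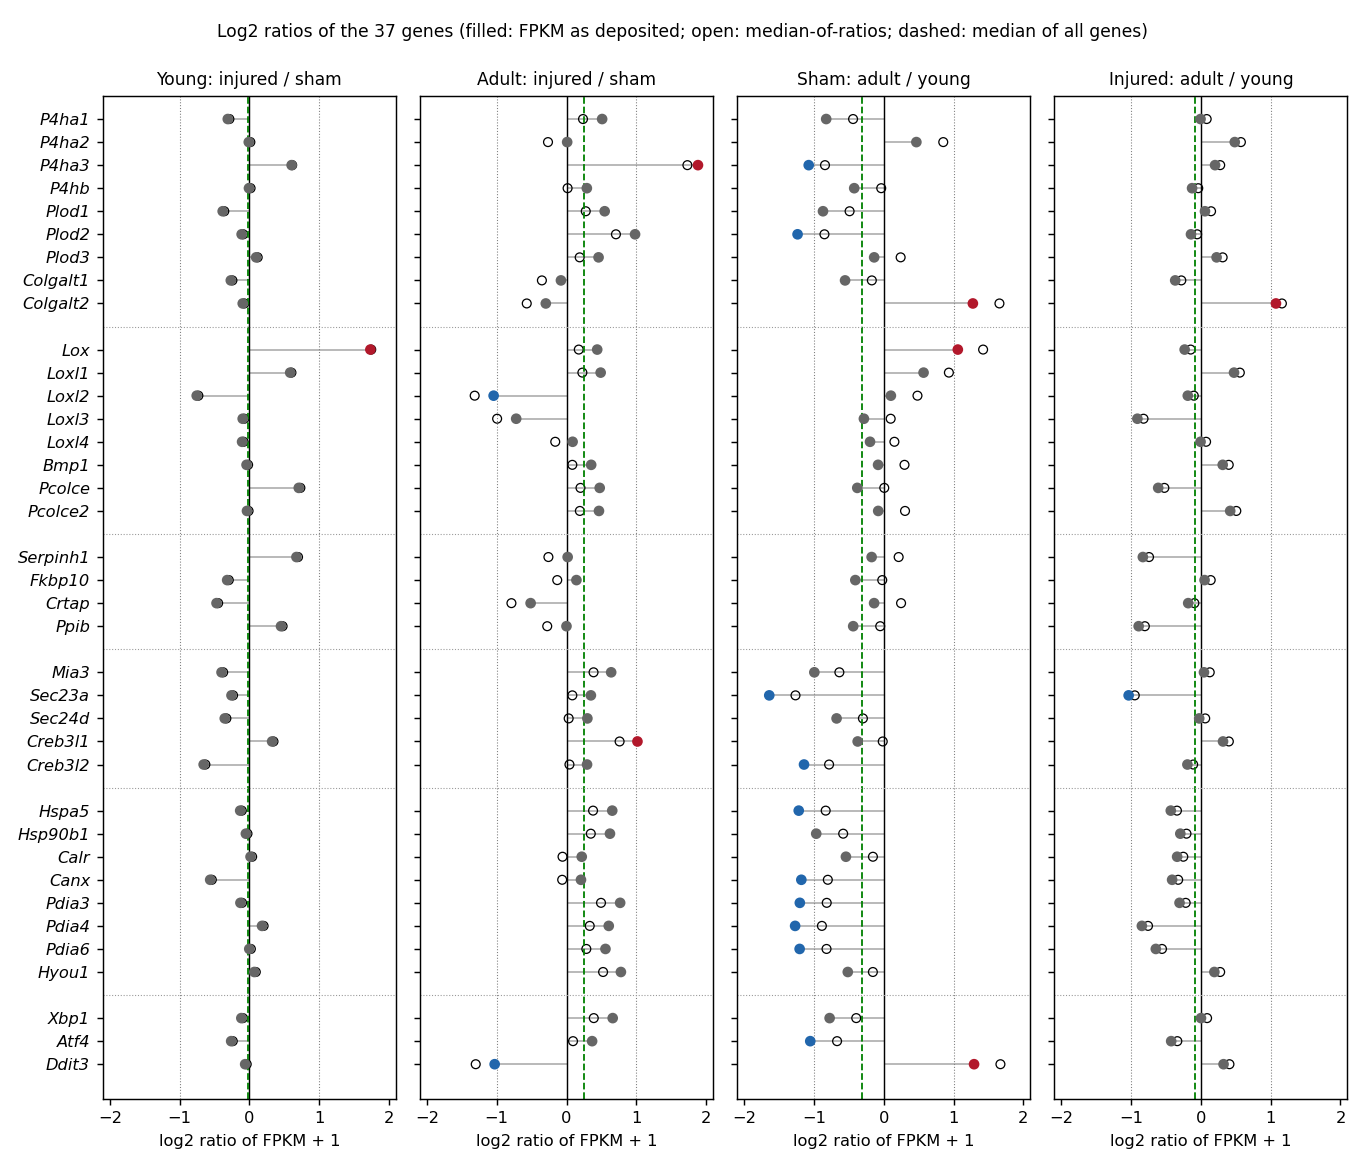
Log2 ratio of FPKM + 1 for the 37 genes in the 4 comparisons, with filled points for FPKM as deposited (red and blue where 2-fold higher or lower), open points after median-of-ratios scaling, and a dashed green line at the median of all genes. In the comparison of sham libraries 10 blue points lie at or beyond -1, and 9 of their open points lie between -1 and 0.

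The 8 ER chaperones and folding enzymes were all lower in adult sham than in young sham cartilage. The median log2 ratio of the group was -1.19, and 5 of the 8 genes were 2-fold lower, compared with 14.6% of all genes. After median-of-ratios scaling all 8 were still lower, with a median of -0.81, but 0 reached 2-fold. Of all 13209 genes, 9176 were below 0 in this comparison as deposited and 6691 after scaling. *Hspa5* (Entrez Gene 14828), which encodes BiP, the principal Hsp70 chaperone of the ER, lies at chr2:34772090-34776529 on GRCm38.p6. It was at 481 and 439 FPKM in young mice (sham, then injured), and 206 and 325 FPKM in adult mice. The adult injured value thus lay between the adult sham and the young values. The log2 ratio of *Hspa5* was -1.22 between the sham libraries (-0.83 after scaling), 0.65 after injury in adult mice (0.38 after scaling) and -0.13 after injury in young mice.

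For all but *Hyou1* of these 8 genes, adult sham was lowest as deposited and adult injured next, below both young libraries, although adult injured was below adult sham for *Canx* and *Calr* after scaling. *Pdia3*, which acts on glycoproteins held by the calnexin cycle, was at 312 FPKM in the sham and 286 in the injured library of young mice, against 135 and 231 FPKM in those of adult mice. *Pdia4*, another disulfide isomerase, stood at 173, 196, 71.1 and 109 FPKM. *Pdia6* was at 303, 302, 131 and 193 FPKM. Between the sham libraries the log2 ratio was -1.20 for *Pdia3*, -1.27 for *Pdia4* and -1.21 for *Pdia6*, and after scaling it was -0.82, -0.89 and -0.82. The lectin chaperones differed from each other. *Canx*, the membrane-bound calnexin, was at 82.4 and 55.5 FPKM in young sham and injured cartilage, and 35.8 and 41.4 FPKM in the adult counterparts, with a log2 ratio of -1.18 between the sham libraries (-0.80 after scaling). *Calr*, its soluble relative calreticulin, was the most abundant of the 8 at 598, 605, 410 and 477 FPKM, and its log2 ratio was -0.54 (-0.15 after scaling).

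*Hsp90b1*, the Hsp90 of the ER, was at 384 FPKM in the young sham library and 371 after injury, compared with 196 and 302 FPKM in the adult libraries, and its log2 ratio between the sham libraries was -0.97 (-0.58 after scaling). Of its exon bases 15.7% overlap other genes, among them *1810014B01Rik* on the other strand. *Hyou1*, a large chaperone that works with BiP, was the least abundant at 15.9, 16.8, 10.8 and 19.3 FPKM. It was the only gene of the group whose highest value was in adult injured cartilage. After injury in adult mice all 8 genes had a positive log2 ratio, from 0.21 for *Canx* to 0.78 for *Hyou1*, with a median of 0.61 beside 0.25 for all genes, and 0 reached 2-fold. After median-of-ratios scaling 6 of the 8 stayed positive, *Canx* and *Calr* were at -0.06, and the median was 0.34. Of all 13209 genes, 9541 were above 0 after injury in adult mice as deposited, and 6985 after scaling. After injury in young mice the 8 ratios lay between -0.56 and 0.18. The 8 markers of B cells and of plasma cells, which have an abundant ER, summed to 77.5 and 107 FPKM in young mice (sham, then injured), and 26.7 and 59.0 FPKM in adult mice. At least 5 of these 8 markers were at 1 FPKM or more in each library, and none was at 0. The sum was made up mostly of *Sdc1* and the B cell genes *Cd79a* and *Cd79b*, whereas *Jchain*, of plasma cells, was at 0.157, 0.172, 1.03 and 1.06 FPKM and *Derl3* at 0.569, 0.871, 0.995 and 0.569 FPKM. Their part in the chaperone difference was not tested.

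The ER stress response element (ERSE) is the classical sequence through which ATF6 and XBP1 act on chaperone genes, and it was first described in genes of this kind, so that its presence in them is background. It was searched as CCAAT and CCACG separated by any 9 bases, on both strands, from 250 bases before to 50 bases after the start site in the RefSeq promoter table on GRCm38.p6. The table held 27 of the 37 genes, and no entry was found for *Bmp1*, *Loxl3*, *Colgalt2*, *Creb3l1*, *Loxl2*, *Hyou1*, *Loxl1*, *Lox*, *Fkbp10* and *Plod2*. The element was in 39 of 32851 promoters (0.119%). It was found in 5 of the 7 ER chaperones with a promoter, and in 0 of the 20 genes of other roles. The matches are shown because the ER chaperones had the lowest median of the 6 roles between the sham libraries, and capitals mark the 5-base conserved blocks, which read CGTGG and ATTGG where the element lies on the other strand:
*Hspa5*, chr2:34772025-34772043, + strand, 65 bases before the start site: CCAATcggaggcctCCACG
*Hsp90b1*, chr10:86705638-86705656, − strand, 212 bases before the start site: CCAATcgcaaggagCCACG
*Hsp90b1*, chr10:86705533-86705551, − strand, 107 bases before the start site: CGTGGtgaggcacgATTGG
*Calr*, chr8:84847075-84847093, − strand, 162 bases before the start site: CGTGGtcgaccctcATTGG
*Canx*, chr11:50325800-50325818, − strand, 145 bases before the start site: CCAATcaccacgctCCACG
*Pdia6*, chr12:17266491-17266509, + strand, 98 bases before the start site: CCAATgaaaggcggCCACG

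The 250 bases before the start site of *Hspa5*, chr2:34771840-34772089 on the + strand, show the element in its context, with the same blocks in capitals:
*Hspa5* upstream: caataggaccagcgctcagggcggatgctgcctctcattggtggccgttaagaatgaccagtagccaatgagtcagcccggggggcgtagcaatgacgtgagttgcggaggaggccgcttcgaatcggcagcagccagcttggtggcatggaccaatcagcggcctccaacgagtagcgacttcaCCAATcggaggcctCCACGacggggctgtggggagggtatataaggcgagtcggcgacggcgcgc

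Between the sham libraries, the chaperones with a match were at -1.22 (*Hspa5*), -1.21 (*Pdia6*), -1.18 (*Canx*), -0.97 (*Hsp90b1*) and -0.54 (*Calr*). *Pdia3* and *Pdia4*, at -1.20 and -1.27, had a promoter entry without a match. The part of the element in these differences was not tested. The other 13 genes tested with a match had a median log2 ratio of -0.33 between the sham libraries, beside -0.31 for all genes, with 0 higher and 2 lower at 2-fold. The related ERSE-II element, ATTGG and CCACG separated by any 1 base, was in 12 promoters (0.0365%) and in 0 of the 27 genes. The ATF4 element TTGCATCA was in 294 promoters (0.895%) and in 0 of the 27. The core TGACGTGG of the unfolded protein response element was in 222 promoters (0.676%), among them that of *Sec24d*, 26 bases before the start site, and that of *Sec23a*, just after it. A match is a string of letters and was not tested as a binding site.

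Of the 3 ER stress factors, *Xbp1* and *Atf4* were lowest in adult sham like the chaperones, and *Ddit3* was highest there. *Xbp1*, whose spliced form activates chaperone and export genes, was at 83.0 FPKM in the sham and 76.6 in the injured library of young mice, against 48.1 and 76.6 FPKM in those of adult mice. Its log2 ratio was -0.78 between the sham libraries (-0.39 after scaling) and 0.66 after injury in adult mice. The table gives 1 value per gene, so the spliced and unspliced forms were not separated. *Atf4*, the factor translated when general protein synthesis is reduced, was at 188, 157, 90.3 and 117 FPKM, a log2 ratio of -1.05 between the sham libraries (-0.67 after scaling). *Ddit3*, which encodes the stress factor CHOP and lies at chr10:127290793-127296291, was at 23.1 and 22.2 FPKM in young sham and injured cartilage, and 58.2 and 28.0 FPKM in the adult counterparts. Adult sham thus stood above the other 3 libraries. Its log2 ratio was 1.29 between the sham libraries (1.67 after scaling), -1.03 after injury in adult mice (-1.30 after scaling) and -0.06 after injury in young mice. The ratio of *Ddit3* to *Atf4* within a library, which no constant factor for a whole library can alter, was 0.123 and 0.141 in young sham and injured cartilage and 0.645 and 0.240 in the adult counterparts.

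The 5 export genes were also all lower in adult sham than in young sham, with a median log2 ratio of -0.99 (-0.64 after scaling, all 5 still below 0), beside 9176 of all 13209 genes below 0 as deposited and 6691 after scaling. *Sec23a* (Entrez Gene 20334, chr12:58958384-59012017), an inner coat protein of COPII vesicles that is required for collagen export, had the most negative ratio of the 37 genes between the sham libraries. It was at 74.3 FPKM in the young sham library and 62.0 after injury, compared with 23.1 and 29.8 FPKM in the adult libraries. Both adult libraries were thus below both young libraries. Its log2 ratio was -1.64 between the sham libraries (-1.26 after scaling) and -1.04 between the injured libraries (-0.95 after scaling), and it was the only gene still 2-fold lower in adult sham after median-of-ratios scaling. *Sec24d*, which recruits cargo to the same coat, was at 48.0, 37.4, 29.7 and 36.8 FPKM, a log2 ratio of -0.68 between the sham libraries. The ratio of *Sec24d* to *Sec23a* within a library was 0.647 and 0.603 at the young age, and 1.28 and 1.24 at the adult age.

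The regulators and the receptor of the export route were less abundant. *Creb3l2*, a membrane-bound transcription factor known to activate *Sec23a* in chondrocytes, was at 22.2 and 13.7 FPKM in young mice (sham, then injured), and 9.52 and 11.9 FPKM in adult mice. It was highest in young sham, and its log2 ratio between the sham libraries was -1.14 (-0.78 after scaling). *Creb3l1*, its relative best known from osteoblasts, was at 14.5, 18.5, 11.0 and 23.3 FPKM. It was higher in the injured library at both ages, with log2 ratios of 0.33 and, in adult mice, 1.02 (0.76 after scaling, below 2-fold). The summed osteoblast markers were higher in the injured library at both ages too. In adult mice this came mainly from *Spp1* (2722 and 4953 FPKM) and *Col1a1* (223 and 741 FPKM), while *Ibsp* was at 4136 and 4218, *Bglap* at 449 and 453 and *Alpl* at 676 and 537 FPKM. The part of these markers in the *Creb3l1* values was not tested. *Mia3*, which encodes the receptor TANGO1 that loads procollagen into vesicles, was at 19.99, 14.9, 9.54 and 15.4 FPKM. The log2 ratio of *Mia3* after injury was -0.40 at the young age and 0.64 at the adult age.

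**Figure D3:**
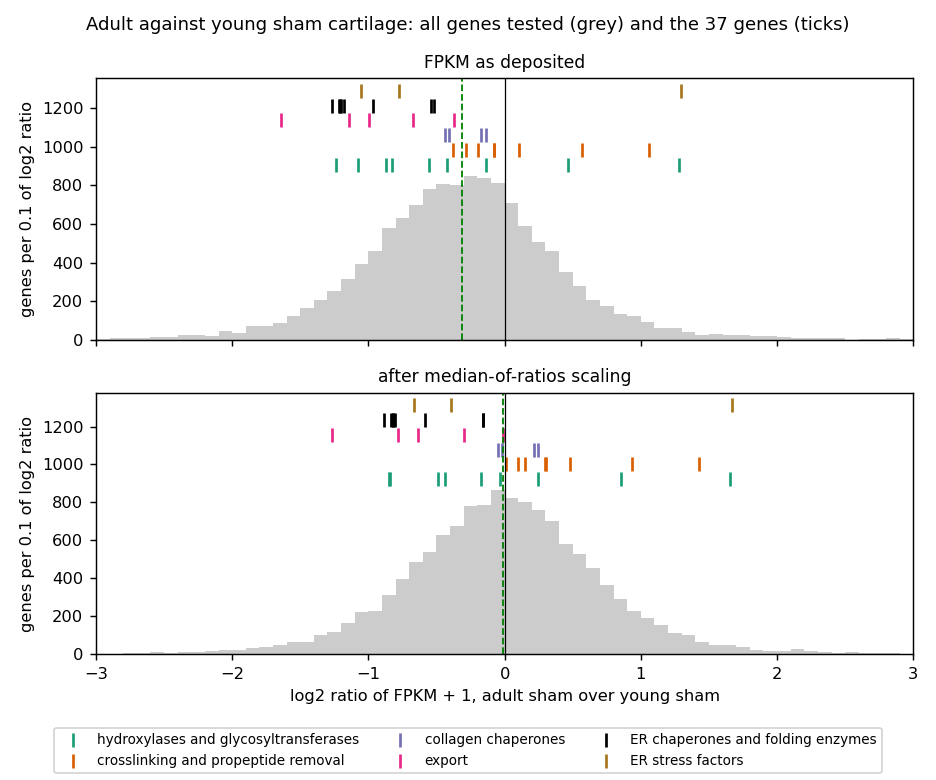
Histogram of the log2 ratio of FPKM + 1 between adult sham and young sham for all 13209 genes (grey, in bins of 0.1) with the 37 genes as ticks coloured by role, for FPKM as deposited (top) and after median-of-ratios scaling (bottom), with the median of all genes as a dashed line. The 8 ER chaperones lie left of 0 in both panels, with medians of -1.19 and -0.81, whereas the 8 crosslinking and propeptide genes lie on both sides of 0 in the top panel and all right of it in the bottom panel.

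Among the prolyl 4-hydroxylases, the catalytic subunits differed in their order of libraries. *P4ha1* was at 214 FPKM in the sham and 173 in the injured library of young mice, against 121 and 172 FPKM in those of adult mice. *P4ha2* was at 135 and 134 FPKM in the young libraries and at 187 and 189 FPKM in the adult libraries. The ratio of *P4ha2* to *P4ha1* was therefore 0.631 in young sham and 0.779 after injury, against 1.56 and 1.10 in the adult libraries, so that *P4ha2* was the more abundant of the pair only in the adult libraries. *P4ha3*, the third subunit (Entrez Gene 320452, chr7:100285489-100319701), was at 3.20, 5.40, 0.996 and 6.36 FPKM. Its log2 ratio of 1.88 after injury in adult mice (1.73 after scaling) was the highest of the 37 genes in any comparison as deposited, although *Lox* in young mice was above it after scaling, at 1.75. In young mice the ratio of *P4ha3* was 0.61. *P4ha3* was also the least abundant of the set. With 0.1 or 5 FPKM added in place of 1, its adult injury ratio was 2.56 or 0.92. If 1 step of the lowest values is 1 fragment, its level rested on about 201, 339, 73.1 and 393 fragments in the 4 libraries. *P4hb*, the shared partner subunit and itself a disulfide isomerase, was at 767, 764, 572 and 700 FPKM, a log2 ratio of -0.42 between the sham libraries (-0.04 after scaling).

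Of the lysyl hydroxylases, *Plod2* differed most. It hydroxylates the telopeptides from which stable crosslinks form, and it lies at chr9:92539636-92608428. *Plod2* was at 297 and 275 FPKM in young sham and injured cartilage, and 126 and 249 FPKM in the adult counterparts. The adult sham value stood apart from the other 3, with a log2 ratio of -1.23 between the sham libraries (-0.85 after scaling) and 0.98 after injury in adult mice (0.71 after scaling). *Plod1*, which acts on the helix, was at 88.7, 67.8, 48.1 and 70.6 FPKM. *Plod3*, which also carries glycosyltransferase activity, was at 48.4, 51.9, 43.9 and 60.8 FPKM, and its log2 ratio between the sham libraries was -0.14, or 0.24 after scaling. Of its exon bases 11.9% overlap other genes, among them *Znhit1* on the other strand.

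The collagen galactosyltransferases, which add galactose to hydroxylysine, differed between the ages in opposite directions. *Colgalt1* was at 118 FPKM in the young sham library and 97.6 after injury, compared with 79.7 and 75.3 FPKM in the adult libraries. *Colgalt2* (Entrez Gene 269132, chr1:152399805-152510695) was at 33.9, 31.7, 83.6 and 67.9 FPKM. Both adult libraries were above both young libraries for *Colgalt2*. The log2 ratio of *Colgalt1* was -0.55 between the sham libraries and -0.37 between the injured libraries (-0.17 and -0.28 after scaling). The log2 ratio of *Colgalt2* was 1.28 between the sham libraries and 1.08 between the injured libraries (1.66 and 1.16 after scaling), and it was the only one of the 37 genes 2-fold higher in the adult in both. The ratio of *Colgalt2* to *Colgalt1* was 0.289, 0.325, 1.05 and 0.901 in the 4 libraries. About 11.4% of the exon bases of *Colgalt1* overlap *Unc13a* on the other strand, and the sources used here do not say whether strand was used in counting.

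The 4 collagen chaperones were abundant, from 181 to 1511 FPKM, and 0 differed 2-fold in any comparison. *Serpinh1*, the collagen-specific chaperone of the ER, ranked 79th of all genes by FPKM in young sham, 40th in young injured, 69th in adult sham and 73rd in adult injured cartilage. It was at 946, 1511, 839 and 848 FPKM, so that the young injured library stood above the other 3. *Ppib*, cyclophilin B, was at 911, 1248, 672 and 672 FPKM and was likewise highest in young injured cartilage. For *Serpinh1* the log2 ratio of injured to sham was 0.67 at the young and 0.02 at the adult age, and for *Ppib* it was 0.45 and -0.00. After scaling the adult ratios were -0.26 and -0.28. *Crtap*, which forms the prolyl 3-hydroxylation complex with *Ppib* and *P3h1*, was instead lower after injury at both ages, at 296 and 213 FPKM in young mice (sham, then injured), and 269 and 188 FPKM in adult mice. *Fkbp10*, another prolyl isomerase, was at 241, 193, 181 and 200 FPKM. About 13.5% of the 31-base words of *Ppib* also occur in another gene, *Gm10845*, and 25.0% of its exon bases overlap *Snx22* on the other strand, so its values are less certain than those of the other 3.

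Of the genes that act outside the cell, the lysyl oxidases *Lox* and *Loxl2* showed opposite differences after injury. *Lox*, the founding crosslinking enzyme, was at 8.98 FPKM in the sham and 32.2 in the injured library of young mice, against 19.8 and 27.2 FPKM in those of adult mice. It was lowest in young sham, and the other 3 libraries lay between 19.8 and 32.2 FPKM. The log2 ratio of *Lox* was 1.73 after injury in young mice, 0.44 after injury in adult mice (0.18 after scaling) and 1.06 between the sham libraries (1.42 after scaling), and it was the only one of the 37 genes 2-fold higher after injury in young mice. *Loxl2* was at 56.0, 32.8, 60.2 and 28.7 FPKM, and both injured libraries were below both sham libraries. Its log2 ratio of injured to sham was -0.75 at the young and -1.05 at the adult age (-1.32 after scaling). *Loxl2* shares 46.2% of its 31-base words with *Gm21451*, so that its level is uncertain. The ratio of *Lox* to *Loxl2* was 0.160 in young sham and 0.329 in adult sham, and 0.981 in young injured and 0.950 in adult injured cartilage. The 7 fibroblast markers, of which all were detected in each library, summed to 1066 and 2958 FPKM in young sham and injured cartilage, and 702 and 2458 FPKM in the adult counterparts. Most of the rise was in *Lum* (230 and 1437 FPKM in young, 129 and 778 FPKM in adult mice), *Col1a1* and *Col3a1*, whereas *Dpt* was lower after injury, at 55.2 and 35.0 FPKM in young and 78.8 and 36.7 FPKM in adult mice. The part of these markers in the *Lox* values was not tested.

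The remaining crosslinking genes differed less than 2-fold in every comparison. *Loxl1*, known for its role in elastic fibres, was at 11.1 FPKM in the young sham library and 17.1 after injury, compared with 16.9 and 24.1 FPKM in the adult libraries. *Loxl3* was at 107, 100, 87.9 and 52.9 FPKM, lowest in adult injured cartilage, with a log2 ratio of -0.72 after injury in adult mice (-0.99 after scaling). Of its exon bases 11.6% overlap *Htra2* on the other strand. *Loxl4* was the most even of the 37 genes, from 8.33 to 9.69 FPKM. *Bmp1*, the proteinase that removes the C-propeptide, lay between 39.8 and 51.1 FPKM. *Pcolce*, which enhances that cleavage, was at 539, 881, 414 and 576 FPKM and was higher in the injured library at both ages, with log2 ratios of 0.71 and 0.48 (0.20 in adult mice after scaling). *Pcolce2* was at 112, 110, 106 and 147 FPKM. As a group, these 8 had a median log2 ratio of -0.08 between the sham libraries, which was 0.30 after scaling, where all 8 lay above 0, beside 6502 of all 13209 genes. As deposited 3 of the 8 lay above 0, and with quantile scaling 6.

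The collagens themselves, the clients of this route, gave a scale within each library that no constant factor for a whole library can change, although quantile normalization can. The pairs and denominators given here as ratios were chosen after their values were seen. The FPKM of 24 collagen genes summed to 16215 and 14788 in young sham and injured cartilage and 6937 and 12034 in the adult counterparts. *Col2a1*, the main cartilage collagen, was at 9349, 7903, 3173 and 3750 FPKM. Between the sham libraries 10 of the 24 collagens were 2-fold lower in the adult (41.7%, compared with 14.6% of all genes) and 1 higher (4.17%, compared with 3.66%), or 7 and 3 after scaling (29.2% and 12.5%, compared with 7.64% and 7.34%). After injury 3 were higher and 1 lower in young mice (12.5% and 4.17%, compared with 6.28% and 1.74%), and 10 were higher and 1 lower in adult mice (41.7% and 4.17%, compared with 9.5% and 2.01%), or 6 and 1 after scaling (25% and 4.17%, compared with 6.56% and 3.44%). *Col1a1*, of bone and fibrous tissue, was at 203, 615, 223 and 741 FPKM, and *Col3a1* at 537, 772, 239 and 811 FPKM. *Col9a1*, on the surface of cartilage fibrils, was at 955, 687, 40.9 and 162 FPKM, and *Col10a1*, of hypertrophic cartilage, at 338, 302, 459 and 2446 FPKM. Between the sham libraries the log2 ratio was -2.66 for *Col12a1*, -2.27 for *Col11a1* and 1.45 for *Col24a1*, or -2.29, -1.88 and 1.81 after scaling. *Col18a1* was at 1.56, 11.0, 3.18 and 9.88 FPKM, higher in the injured library at both ages, with log2 ratios of 2.23 and 1.38 (2.21 and 1.16 after scaling).

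Set against the collagen sum, the 37 genes were highest in adult sham rather than lowest. Per 100 FPKM of collagen they amounted to 48.2 and 58.6 FPKM in young mice (sham, then injured), and 78.6 and 53.6 FPKM in adult mice. *Hspa5* was nearly level on this scale, at 2.97 FPKM per 100 of collagen in young sham, young injured and adult sham and 2.70 in adult injured cartilage. *Plod2* lay between 1.81 and 2.07. *Serpinh1*, in contrast, was at 5.84 in young sham and 10.2 after injury, against 12.1 and 7.05 in the adult libraries, and *P4hb* was at 4.73, 5.17, 8.24 and 5.81. The sum of the 4 collagen chaperones per 100 FPKM of collagen was 14.8, 21.4, 28.3 and 15.9, whereas that of the 8 ER chaperones stayed between 14.1 and 17.2. These values depend on the denominator, which was mostly *Col2a1* in the young libraries, while its difference after injury in adult mice came more from *Col10a1* than from *Col2a1*. Relative to *Col2a1* alone, *Hspa5* was not level, at 0.0515, 0.0556, 0.0650 and 0.0868, nor was *Plod2*, at 0.0318, 0.0348, 0.0396 and 0.0665, and *Serpinh1* was at 0.101, 0.191, 0.264 and 0.226.

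**Figure D4:**
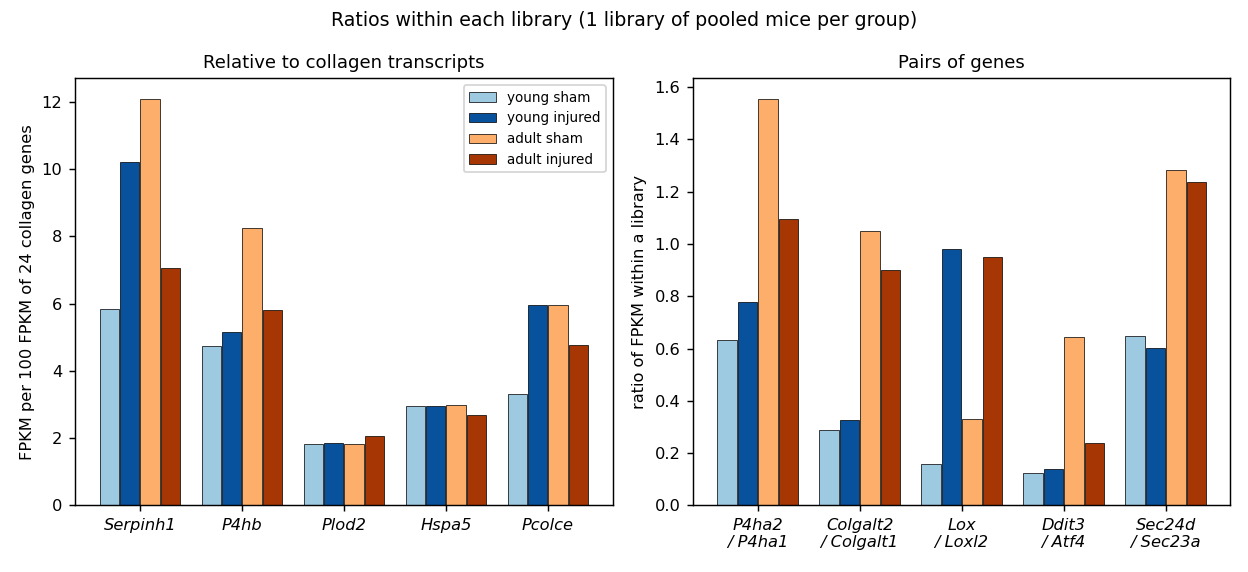
Ratios within each library of FPKM as deposited, which a constant factor for a whole library leaves as they are: FPKM of 5 genes per 100 FPKM of the 24 collagens (left) and ratios of FPKM for 5 pairs of genes (right), 1 bar per library of pooled mice. *Hspa5* and *Plod2* are nearly level across the libraries on the scale of the collagen sum, *Serpinh1* ranges from 5.84 to 12.1, and the ratio of *Colgalt2* to *Colgalt1* is 0.289 and 0.325 in the young and 1.05 and 0.901 in the adult libraries.

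Other genes of the route, listed apart from the 37, were examined in the same way. Of 26 further collagen processing genes tested of 27 listed, 6 were 2-fold lower and 2 higher in adult sham than in young sham, with a median log2 ratio of -0.60 (3 lower, 2 higher and -0.22 after scaling). These were 23.1% lower and 7.69% higher, compared with 14.6% and 3.66% of all genes. After injury 0 were higher and 3 lower in young mice (11.5% lower, compared with 1.74%), and 2 were higher and 0 lower in adult mice (7.69% higher, compared with 9.5%), or 2 and 2 after scaling. *P3h1*, the enzyme of the complex with *Crtap*, was at 151 FPKM in the sham and 126 in the injured library of young mice, against 58.6 and 74.7 FPKM in those of adult mice, so that the ratio of *Crtap* to *P3h1* was 1.96, 1.69, 4.59 and 2.52. *Fkbp11*, an ER prolyl isomerase, was at 60.4, 90.1, 9.87 and 26.9 FPKM. *Sparc*, which binds collagen outside and inside the cell, was at 8634, 6815, 22039 and 11027 FPKM, highest in adult sham. *Mmp14*, a membrane collagenase, was at 52.3, 99.0, 38.5 and 135 FPKM. *Adamts2*, which removes the N-propeptide, was at 1.94, 3.85, 8.45 and 6.20 FPKM, and *P3h2*, another prolyl 3-hydroxylase, at 27.9, 12.7, 32.5 and 33.6 FPKM.

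Of 30 further ER folding and stress genes tested of 31 listed, 5 were 2-fold lower and 1 higher in adult sham than in young sham, with a median log2 ratio of -0.48 (3 lower, 1 higher and -0.15 after scaling). These were 16.7% lower and 3.33% higher, close to the 14.6% and 3.66% of all genes. In adult mice 3 were higher and 0 lower after injury (10% higher, compared with 9.5% of all genes, and 1 and 0 genes after scaling), and in young mice 1 was higher and 0 lower (3.33% higher, compared with 6.28%). *Manf*, a secreted protein of the unfolded protein response, was at 60.03 and 69.0 FPKM in young sham and injured cartilage, and 16.7 and 44.9 FPKM in the adult counterparts, the same order as *Pdia4*. *Asns*, asparagine synthetase and a known ATF4 target, was at 23.1, 22.2, 3.17 and 8.41 FPKM, lowest where *Ddit3*, also known as an ATF4 target, was highest. *Kdelr2*, a receptor that returns chaperones to the ER, was at 269, 272, 95.8 and 155 FPKM. *Atf3*, a stress-induced transcription factor, was at 3.50, 8.68, 8.61 and 6.87 FPKM. The log2 ratio between the sham libraries was -1.78 for *Manf*, -2.53 for *Asns*, -1.48 for *Kdelr2* and 1.09 for *Atf3*, and after scaling it was -1.41, -2.20, -1.10 and 1.43, at 2-fold or more in all 4. *Pdia5*, a disulfide isomerase, was at -1.23 and *Ganab*, a glucosidase that trims N-glycans, at -1.08, and after scaling both were below 2-fold, at -0.87 and -0.70.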

How the data were processed

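RNA was sequenced from 4 libraries, 1 for each group. The authors deposited FPKM per gene, and the submitters' notes name HISAT2 2.1.0, StringTie 1.3.4d, HISAT, STAR, SAMtools and the build mm10 without their roles. The study's methods name a stranded library kit, but whether strand was used in counting is not given in the sources used here. Log2 ratios of FPKM + 1 were calculated for 4 comparisons over 13209 genes with at least 1 FPKM in at least 1 library, and 2-fold differences were counted. With 1 library per group, no test was run. The 37 genes, the further lists and the marker lists were chosen with earlier results of these data known. All 37 genes were to be named, and of each further list at most 6 that averaged 5 FPKM or more and reached 2-fold, besides *Col1a1*, *Col2a1* and *Col3a1*. Alternatives were pseudocounts of 0.1 and 5 FPKM, other expression filters, rescaling to an equal sum (TPM), median-of-ratios scaling over 10891 genes at 1 FPKM or more in all 4 libraries, thresholds of 1.5-fold and 3-fold, and quantile normalization. For 17286 genes with a single transcript, the lowest values fell on steps that give 26143791 to 31104199 fragments per library if 1 step is 1 fragment, and the counting error of abundant genes is then small. Coordinates and promoters came from RefSeq tables of GRCm38.p6, the assembly of mm10. Shared sequence was measured with 31-base words of annotated transcripts. The scripts were tested on simulated data. Calculations used Python 3.11.15, numpy 2.4.6, pandas 2.3.3 and matplotlib 3.10.9.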

Additional observations from a re-analysis of the deposited data

Results flagged for a closer look

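The lysyl hydroxylase *Plod1* and the export receptor *Mia3* had injury ratios of opposite sign in young and adult mice, as did 21 of the 37 genes (56.8%), compared with 42.6% of all genes. This count was made as deposited, where the median injury ratio of all genes was -0.02 in young and 0.25 in adult mice. It was not repeated after scaling. *Plod1* and *Mia3* were singled out by the size of both ratios. The injury ratio was larger in adult than in young mice for 27 of the 37 genes, compared with 69.4% of all genes, and for 22 of the 37 after median-of-ratios scaling, compared with 49.5%. For *Plod1* the log2 ratio was -0.38 at the young and 0.55 at the adult age, a difference of 0.93, and after median-of-ratios scaling the ratios were -0.36 and 0.28. For *Mia3* it was -0.40 and 0.64, a difference of 1.04, and after scaling the ratios were -0.38 and 0.39. Each group was 1 library, and the difference was not tested. Both genes were lowest in the adult sham library, where the median of all genes was also low.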

How the results depend on the processing

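No paired analysis was possible because each group has 1 library, and for the same reason no library could be left out. The counts of the 37 genes at 2-fold depended on the settings as follows. Shares of all genes were calculated for each scaling at 2-fold, but not for other pseudocounts, 1.5-fold or 3-fold. The 10 genes lower in adult sham than in young sham became 1 with median-of-ratios scaling, compared with 7.64% of all genes. They became 6 with quantile normalization (16.2%, compared with 7.26%), 16 at 1.5-fold and 1 at 3-fold. The 3 higher became 0 at 3-fold. After injury in adult mice, the 2 higher became 1 with median-of-ratios scaling and 1 with quantile normalization, compared with 6.56% and 5.49% of all genes. They became 0 with a pseudocount of 5 FPKM, 10 at 1.5-fold and 1 at 3-fold. The 2 lower became 0 with TPM, compared with 2.22% of all genes, and 0 with a pseudocount of 5 FPKM and at 3-fold. After injury in young mice, the 1 higher became 5 and the 0 lower became 2 at 1.5-fold. Between the injured libraries, the 1 higher became 0 with a pseudocount of 5 FPKM and 0 at 3-fold. The 1 lower became 0 with a pseudocount of 5 FPKM and at 3-fold, and 7 at 1.5-fold. With TPM, median-of-ratios and quantile scaling the 1 lower became 0, compared with 4.45%, 3.62% and 3.51% of all genes. The other 189 counts and medians moved by at most 1.5-fold, and no called value changed sign. Of the 140 medians under alternatives, 13 had the other sign, all with TPM, median-of-ratios or quantile scaling: those of the collagen chaperones after injury at both ages and between the sham libraries, of the crosslinking genes between the ages, and of the export genes and all 37 genes between the injured libraries. Of the ratios of single genes under these alternatives, 737 stayed within 1.5-fold and 3, all of *P4ha3* under another pseudocount, moved further. *Lox* after injury in young mice, *P4ha3* after injury in adult mice, and *Colgalt2*, *Lox*, *Ddit3* and *Sec23a* between the sham libraries, and *Colgalt2* between the injured libraries, were 2-fold apart under all 4 scalings.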
